A study of Mus musculus with 6 samples.

Results

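The insulin-like growth factor (IGF) family was followed in day 1 cultures of primary hepatic stellate cells, the vitamin A-storing cells beside the liver sinusoid, from mice of 2 genotypes. It was represented by 10 genes, out of 17909 gene identifiers listed in at least 1 library: the ligands Igf1 and Igf2, the receptors Igf1r and Igf2r, and the binding proteins Igfbp2, Igfbp3, Igfbp4, Igfbp5, Igfbp6 and Igfbp7. The genes were chosen with their differences between these libraries already known, so their differences are given as a description and carry no test. The HAS2_Tg group (replicates 4, 5 and 6) came from ASMA-HAS2 transgenic mice, in which the alpha smooth muscle actin promoter drives a human hyaluronan synthase 2 gene in cells that express that actin. The Has2_KO group (replicates 7, 8 and 9) came from Has2 f/f Lrat-cre mice, in which stellate cells lose Has2. All were male C57BL/6 mice of 24 weeks, and wild-type cells were not analysed here, so a difference between the groups cannot be assigned to either allele. The cells passed a density gradient and a Cd11b depletion of macrophages, attached for 4 h and were kept for 14 h more with 10% serum. The labels do not say whether the 3 libraries of a group came from separate mice, so the spread between them may be technical.

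IGF1 and IGF2 are secreted hormones that signal for growth and survival through IGF1R, a receptor tyrosine kinase. IGF2R, which is also the cation-independent mannose 6-phosphate receptor, binds IGF2 and takes it to lysosomes. The binding proteins hold IGFs in the extracellular space, lengthen their life and limit or deliver them to the receptor, and several also act without IGFs. In the liver, hepatocytes are the main source of circulating IGF1, while stellate cells are a known source of IGFBP3 and respond to IGF1.

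Total expected counts lay between 11961726 and 12423220 per library. Has2 had 847, 889 and 835 counts in HAS2_Tg and 1 count in each Has2_KO library, which goes with the knockout label. Whether reads of the human transgene count there was not tested. The 12 stellate cell markers were all measured, and 10 were higher in HAS2_Tg, with a summed level of 11643 to 12454 CPM (counts scaled to library size with TMM factors) against 7754 to 8116 CPM. Kupffer cell and macrophage markers summed to 10.7 to 12.9 CPM in HAS2_Tg and 444.9 to 479.5 CPM in Has2_KO, with Clec4f and Timd4 at 0 in HAS2_Tg. Sinusoidal endothelial markers summed to 19.7 to 23.5 against 938.2 to 1026 CPM. Hepatocyte markers summed to 2.63 to 3.89 against 36.2 to 46.8 CPM, and mesothelial markers to 0.349 to 0.523 against 4.50 to 5.47 CPM. Portal fibroblast and vascular smooth muscle markers were split, with 4 of 8 tested higher and 4 lower in HAS2_Tg. Their sum was 1491 to 1790 CPM in HAS2_Tg and 212.7 to 233.2 CPM in Has2_KO, most of it Myh11 in HAS2_Tg (1269 ± 127 against 108.1 ± 6.57 CPM; SD, n = 3). Neutrophil markers summed to 30.1 to 34.7 CPM against 33.1 to 36.8 CPM, with Cxcr2 and Csf3r the highest of that list. S100a8, Elane and Camp were at 0 in every HAS2_Tg library but not in every Has2_KO library, and 1 of 2 tested markers was lower in HAS2_Tg. All 12 macrophage and all 12 endothelial markers were lower in every HAS2_Tg library than in any Has2_KO library. In such bulk samples fewer cells of a type and less RNA per cell cannot be told apart. HAS2_Tg replicate 4 stood apart within its group, with a chi-square statistic of 22.8 and 31.6 per degree of freedom against its partners, while replicates 5 and 6 had 6.24 and the Has2_KO pairs 2.31 to 3.17. A single gene held 49.8% and 45.6% of those statistics, and without that gene they were 11.4 and 17.2, against 5.66 for replicates 5 and 6. The difference of each member past the low-count filter is therefore also given without replicate 4. Over all 13014 genes tested, 40.7% passed edgeR's quasi-likelihood test at an adjusted p of 0.05, 20.2% as higher and 20.5% as lower in HAS2_Tg. These are 2625 and 2673 genes, and 1477 and 4823 when total counts replace TMM.

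The promoter windows of 3 members are shown, picked by their values: Igfbp3 had the largest difference, Igfbp7 the highest level, and Igf1 was the ligand with the larger difference. Each window runs from 250 bases before to 50 bases after a transcript start in RefSeq (GRCm38.p6), 5′ to 3′ on the gene's strand. Igfbp3 is at chr11:7213874-7214173 on the minus strand, Igfbp7 at chr5:77407996-77408295 on the minus strand and Igf1 at chr10:87860861-87861160 on the plus strand. Capitals mark matches, on either strand, to the TATA-type letters TATATA and to the like TATAAA, to the GC box GGGCGG and to the TEAD-type motif CATTCC. The letters TATATA read the same on both strands, so each match is counted once.
Igfbp3: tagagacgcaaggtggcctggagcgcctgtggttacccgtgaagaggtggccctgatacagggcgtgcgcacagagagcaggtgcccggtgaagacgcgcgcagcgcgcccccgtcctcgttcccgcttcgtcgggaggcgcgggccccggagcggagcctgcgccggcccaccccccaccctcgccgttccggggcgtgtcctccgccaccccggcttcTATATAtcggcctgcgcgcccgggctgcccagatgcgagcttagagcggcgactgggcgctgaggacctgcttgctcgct
Igfbp7: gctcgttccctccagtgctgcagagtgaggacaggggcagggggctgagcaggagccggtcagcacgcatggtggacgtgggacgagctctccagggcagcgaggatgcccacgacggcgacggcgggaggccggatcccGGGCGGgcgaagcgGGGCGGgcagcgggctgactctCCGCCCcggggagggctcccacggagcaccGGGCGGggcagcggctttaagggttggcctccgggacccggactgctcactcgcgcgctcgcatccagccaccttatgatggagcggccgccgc
Igf1: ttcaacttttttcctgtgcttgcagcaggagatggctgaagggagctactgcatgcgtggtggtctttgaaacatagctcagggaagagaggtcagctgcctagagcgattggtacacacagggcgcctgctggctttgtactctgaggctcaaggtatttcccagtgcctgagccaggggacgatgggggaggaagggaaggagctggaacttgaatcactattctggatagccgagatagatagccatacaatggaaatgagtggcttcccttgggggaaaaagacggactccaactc
The Igfbp3 window held 1 TATATA, which starts 30 bases before the transcript start, and 37 CG dinucleotides. The Igfbp7 window held 4 matches to GGGCGG and 33 CG dinucleotides. The Igf1 window held none of these letters and 6 CG dinucleotides, near the median of 7 over all 32851 windows. Of all windows, 5.67% held TATATA, 13.6% held TATAAA, 35.7% held GGGCGG and 14.7% held CATTCC. All 10 members had a window, 14 in all, with 4 for Igf2 and 2 for Igfbp2. The windows of Igf1r and Igf2r, with 48 and 34 CG dinucleotides, held 2 and 3 matches to GGGCGG, and those of Igfbp4 and Igfbp6 held 1 TATAAA each. The Igfbp5 window held 10 CG dinucleotides and 1 CATTCC. Igf2 windows 2, 3 and 4 held 2, 1 and 1 CATTCC, and its windows 3 and 4 also held 1 and 2 GGGCGG. Igfbp2 window 1 held 3 GGGCGG. These are matches of letters in a window, no binding was measured, and no result here rests on them. The RefSeq spans of Igf1 and Igfbp3 begin upstream of their windows, so a window need not show every start.

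The HAS2_Tg means of the family ran from 0.04 to 2542 FPKM (fragments per length and depth), a scale that allows genes to be set against each other. In HAS2_Tg the order of mean FPKM was Igfbp7, Igfbp3, Igf1r, Igfbp4, Igf2r, Igfbp5, Igf1, Igf2, Igfbp6 and Igfbp2. In Has2_KO it was Igfbp7, Igfbp3, Igfbp4, Igf1r, Igf2r, Igf1, Igf2, Igfbp5, Igfbp6 and Igfbp2. Igfbp7 led both groups, at 2542 ± 303 FPKM (SD, n = 3) in HAS2_Tg and 1919 ± 69.1 FPKM in Has2_KO, and ranked 6 to 10 among all genes of a library. Igfbp3 ranked 106 to 116 in the HAS2_Tg libraries and 1682 to 1885 in the Has2_KO libraries. Neighbours in the order whose library ranges overlapped were Igfbp5 and Igf1 in HAS2_Tg, and Igf2 and Igfbp5, and Igfbp6 and Igfbp2, in Has2_KO. All other neighbours were separate in every library of their group. Igfbp4 and Igf1r exchanged places, with Igf1r at 19.3 ± 2.29 against 9.56 ± 1.54 FPKM for Igfbp4 in HAS2_Tg and 14.1 ± 0.0907 against 16.5 ± 0.954 FPKM in Has2_KO.

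**Figure D1:**
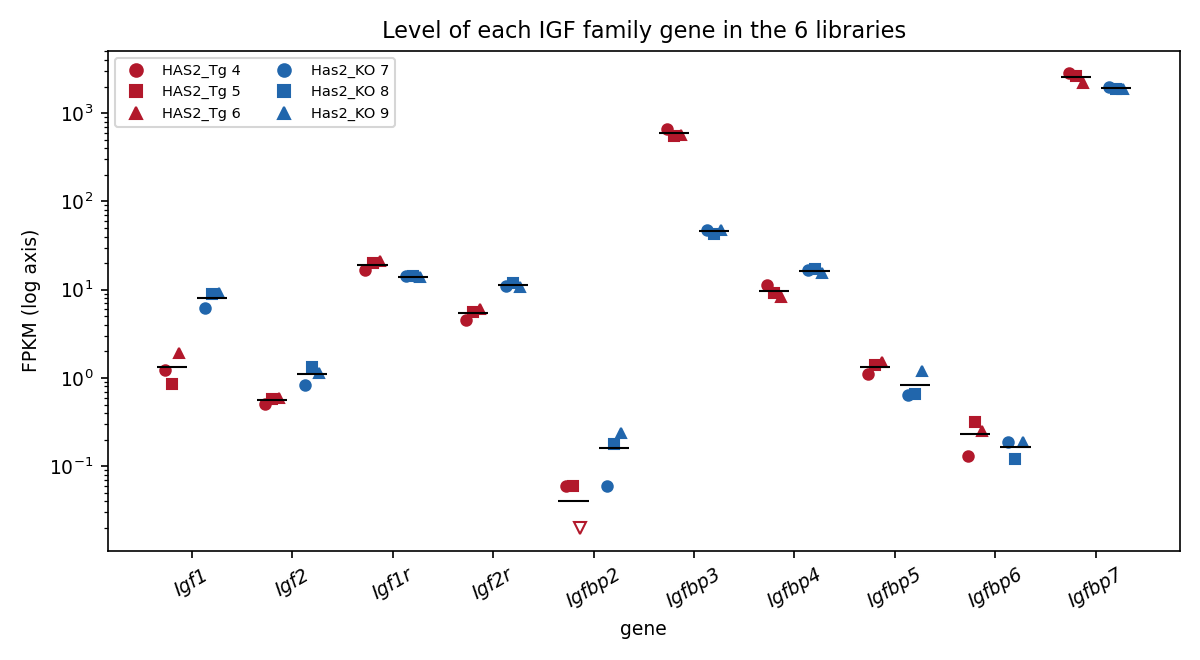
FPKM (log axis) of the 10 genes in each library, HAS2_Tg in red and Has2_KO in blue, with the group mean as a line. Igfbp3 lies between 555.2 and 663.5 FPKM in HAS2_Tg and between 42.8 and 47.7 FPKM in Has2_KO, and the open triangle marks Igfbp2 in HAS2_Tg replicate 6, which is listed at 0.

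Both ligands were lower in HAS2_Tg. Igf1, which binds IGF1R, had 4.93, 5.05 and 6.63 CPM in HAS2_Tg replicates 4, 5 and 6 and 17.8, 21.0 and 21.0 CPM in Has2_KO replicates 7, 8 and 9. The groups did not overlap, and the lowest Has2_KO library was 2.69 times the highest HAS2_Tg library. The log2 fold change (HAS2_Tg minus Has2_KO) was -1.85 (SE 0.14), and -1.77 without HAS2_Tg replicate 4. On FPKM the gap was wider, at 1.34 ± 0.543 against 8.07 ± 1.62 (SD, n = 3), a ratio of 6.02 against 3.61 on CPM. The authors' length for Igf1, a gene with several listed transcripts, differed between libraries, at 3700, 5574 and 3196 bases in HAS2_Tg and 3046, 2524 and 2432 bases in Has2_KO. The lengths of the 2 groups did not overlap, and the HAS2_Tg values rest on 55 to 76.0 expected counts each. Igf2, the ligand of both receptors, was low throughout, with 2.06, 2.19 and 2.62 CPM in HAS2_Tg and 3.11, 4.93 and 4.37 CPM in Has2_KO. The groups were separate by a factor of 1.19 at their closest, and the log2 fold change was -0.85 (SE 0.23), or -0.78 without replicate 4. Igf1 exceeded Igf2 on FPKM in all 6 libraries, by 1.51 to 3.22 times in HAS2_Tg and 6.64 to 8.04 times in Has2_KO. The macrophage, endothelial and hepatocyte markers above were lower in the same libraries as both ligands, and their part in the difference was not tested.

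The receptors differed in opposite directions. Igf1r, the signalling receptor, had 218.7, 252.2 and 274.0 CPM in HAS2_Tg and 161.1, 161.1 and 159.9 CPM in Has2_KO. The 3 Has2_KO libraries were nearly equal, with a coefficient of variation of 0.447% against 11.2% in HAS2_Tg, and every HAS2_Tg library was higher. Its log2 fold change was 0.63 (SE 0.08), and 0.71 without replicate 4, the lowest of its group. Igf2r, which clears IGF2 and sorts lysosomal enzymes, had 44.4, 52.6 and 58.1 CPM in HAS2_Tg and 92.7, 102.0 and 91.2 CPM in Has2_KO. All HAS2_Tg libraries were lower, with a log2 fold change of -0.88 (SE 0.10), or -0.79 without replicate 4. The FPKM ratio of Igf1r to Igf2r was 3.67, 3.58 and 3.52 in HAS2_Tg and 1.30, 1.18 and 1.31 in Has2_KO, with a HAS2_Tg mean of 3.55 without replicate 4. This ratio needs no scaling between libraries and its SD was 0.0780 in HAS2_Tg and 0.0715 in Has2_KO. Macrophage, endothelial and hepatocyte markers were lower, and most stellate cell markers higher, in the same HAS2_Tg libraries. Their part in the receptor differences and in this ratio was not tested.

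Igfbp3, the main carrier of IGFs in blood, differed most of the 10 genes. It had 1760.1, 1423 and 1469 CPM in HAS2_Tg and 109.3, 99.1 and 110.7 CPM in Has2_KO. Every HAS2_Tg library was at least 12.85 times every Has2_KO library. The log2 fold change was 3.87 (SE 0.10), a 14.6-fold difference that ranks 12 from the top among the 13014 genes tested, and it was 3.76 without replicate 4, the highest library. Igfbp7, a secreted protein that binds IGFs weakly and is abundant in vessel walls, had 3342, 2984 and 2605 CPM in HAS2_Tg and 2068, 1948 and 1954 CPM in Has2_KO. It was higher in all HAS2_Tg libraries, with a log2 fold change of 0.58 (SE 0.09) and 0.49 without replicate 4. On FPKM Igfbp3 stood at 592.8 ± 61.3 in HAS2_Tg and 45.9 ± 2.72 in Has2_KO (SD, n = 3). Most stellate cell markers and 4 of the 8 tested portal fibroblast and vascular smooth muscle markers, Myh11 among them, were higher in the same libraries, and the other 4 were lower. Their part in these differences was not tested. The sinusoidal endothelial markers were lower in these libraries, and their part in the Igfbp7 difference was not tested.

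Igfbp4 and Igfbp5 differed less. Igfbp4, which inhibits IGF action until it is cleaved by the protease PAPP-A, had 25.1, 19.7 and 18.2 CPM in HAS2_Tg and 32.7, 33.3 and 29.96 CPM in Has2_KO. All HAS2_Tg libraries were lower, replicate 4 being nearest to the other group, and the log2 fold change was -0.61 (SE 0.11) with it and -0.76 without it. Igfbp5, which binds to matrix, had 7.17, 8.62 and 9.60 CPM in HAS2_Tg and 3.57, 3.64 and 6.63 CPM in Has2_KO. The groups were separate by a factor of only 1.08 on CPM and overlapped on FPKM, where HAS2_Tg replicate 4 had 1.12 and Has2_KO replicate 9 had 1.19. Its log2 fold change was 0.88 (SE 0.22), or 0.98 without HAS2_Tg replicate 4, and reached 1.23 when Has2_KO replicate 9 was left out. The part of the cell type markers, which differed between the same libraries, in the Igfbp4 and Igfbp5 differences was not tested.

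Igfbp2 and Igfbp6 were near the limit of detection and did not pass the low-count filter. Igfbp2, abundant in fetal and fasting liver, had 1, 1 and 0 counts in HAS2_Tg and 1, 3 and 4 in Has2_KO. A count of 0 in HAS2_Tg replicate 6 allows a level of up to 0.262 CPM, and the ratio of group sums, Has2_KO over HAS2_Tg and scaled by TMM, was 3.45 with a 95% exact interval of 0.689 to 33.4. Igfbp6, which prefers IGF2, had 2, 5 and 4 counts in HAS2_Tg and 3, 2 and 3 in Has2_KO, a ratio of HAS2_Tg over Has2_KO of 1.59 with an interval of 0.583 to 4.56. Both intervals include 1, so no difference was detectable at this depth. Intervals and limits cover counting error only. Of the 10 genes, 8 passed the filter and all 8 were called by edgeR, 4 as higher and 4 as lower, where 40.7% of all genes were called. The CPM of the groups did not overlap for the same 8, 4 higher and 4 lower, against 52.2% of all genes tested (25.2% higher and 26.9% lower). Because the genes were chosen on this contrast, nothing is read from either count.

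**Figure D2:**
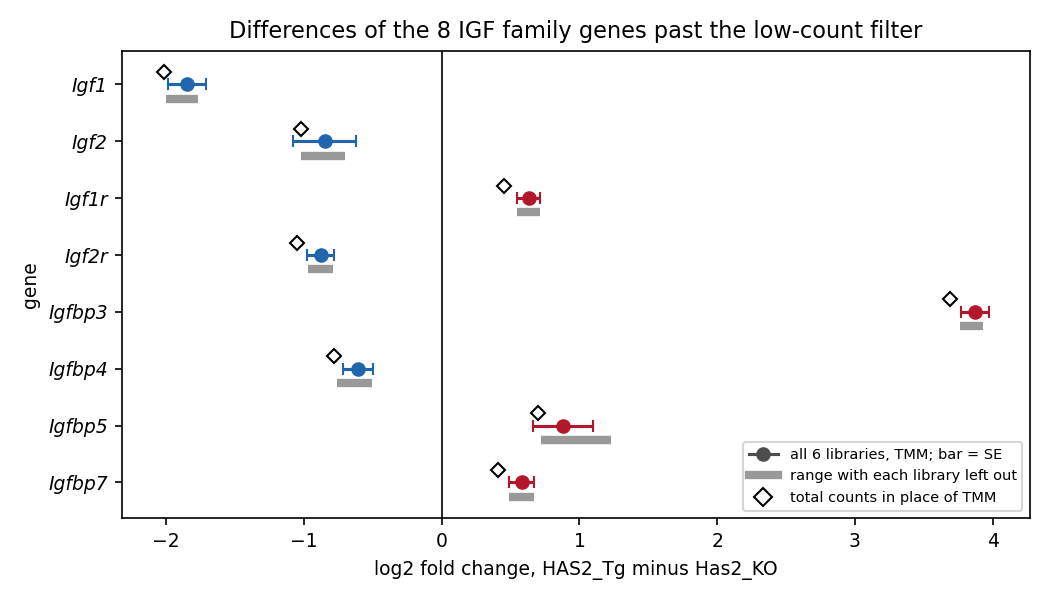
Log2 fold change (HAS2_Tg minus Has2_KO) of the 8 genes past the filter, with the SE as a bar, the range with each library left out as a grey band and the value with total counts as a diamond. Igfbp3 stands at 3.87, the other 7 lie between -1.85 and 0.88, and each keeps its side of 0 in all versions drawn.

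The makeup of the binding protein transcripts differed more than their total. The 6 binding proteins summed to 3488, 3165 and 2784 FPKM in HAS2_Tg and 2064, 1939 and 1944 FPKM in Has2_KO, which was 0.696% ± 0.0540 and 0.448% ± 0.0131 of all FPKM (SD, n = 3). Igfbp7 made up 80.8% ± 1.29 of that sum in HAS2_Tg and 96.8% ± 0.104 in Has2_KO. Igfbp3 made up 18.9% ± 1.29 (range 17.5% to 20.1%) and 2.32% ± 0.125 (2.21% to 2.45%). Without replicate 4 the HAS2_Tg means were 80.8% and 18.8%. Igfbp4 held 0.303% ± 0.0177 and 0.831% ± 0.0481, and Igfbp5 held 0.0436% and 0.0419% with overlapping libraries. The FPKM ratio of Igfbp7 to Igfbp3 was 4.24, 4.68 and 3.96 in HAS2_Tg and 42.2, 43.9 and 39.4 in Has2_KO, with a HAS2_Tg mean of 4.32 without replicate 4.

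**Figure D3:**
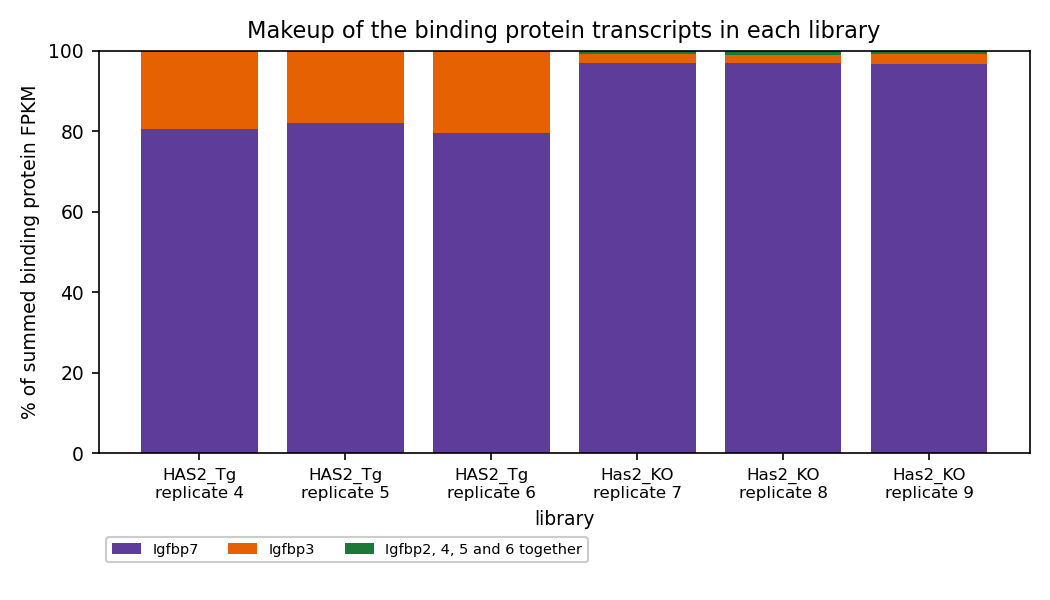
Share of the summed binding protein FPKM held by Igfbp7, by Igfbp3 and by the other 4 binding proteins together, as stacked bars for each library. The Igfbp3 share is 17.5% to 20.1% in the HAS2_Tg libraries and 2.21% to 2.45% in the Has2_KO libraries.

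Ligand and binding protein transcripts differed in opposite directions as sums. The 2 ligands summed to 1.74, 1.43 and 2.53 FPKM in HAS2_Tg and 7.04, 10.2 and 10.3 FPKM in Has2_KO. Binding protein FPKM per ligand FPKM was 2004, 2214 and 1100.4 in HAS2_Tg and 293.1, 190.8 and 188.8 in Has2_KO, a mean of 1773 ± 592 against 224.2 ± 59.7 (SD, n = 3), or 1657 without replicate 4. Without Igfbp7, whose affinity for IGFs is low, the ratio was 336.5 ± 96.5 against 7.17 ± 1.80, or 310.5 in HAS2_Tg without replicate 4. The groups did not overlap in either form. Igf1 per Igf1r was 0.0736, 0.0431 and 0.0913 in HAS2_Tg and 0.439, 0.626 and 0.656 in Has2_KO on the same scale, with a HAS2_Tg mean of 0.0672 without replicate 4. These are ratios of transcripts, and no protein was measured. The Igf1 length described above enters them.

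**Figure D4:**
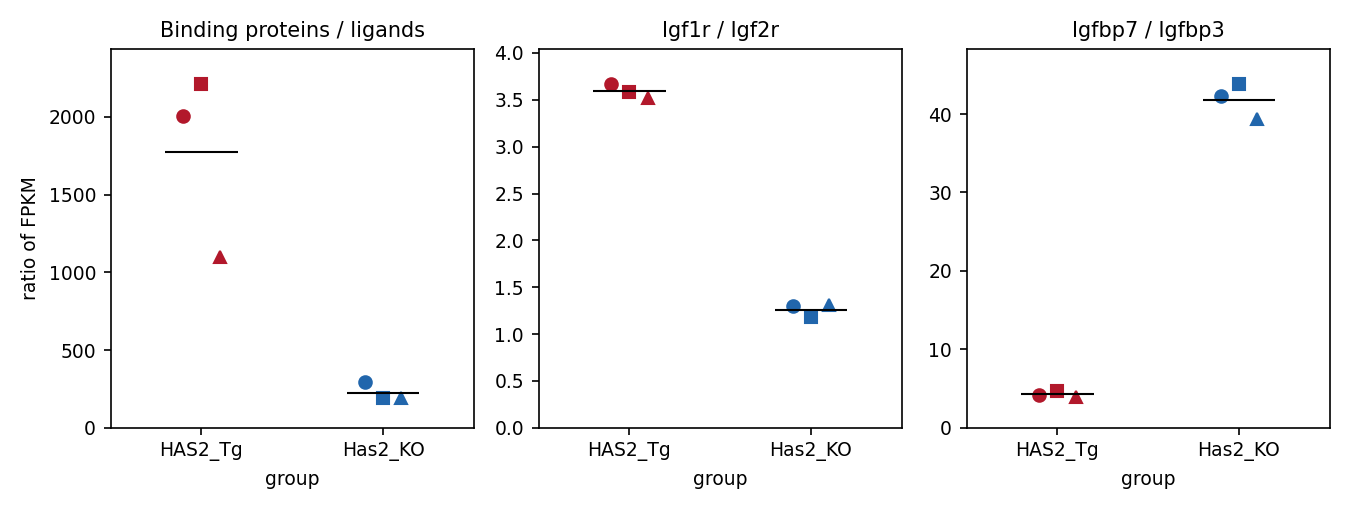
Ratios of FPKM in each library, on linear axes from 0: all binding proteins over both ligands, Igf1r over Igf2r, and Igfbp7 over Igfbp3, with the group mean as a line. HAS2_Tg and Has2_KO libraries do not overlap in any of the 3 panels, and Igf1r over Igf2r is 3.52 to 3.67 against 1.18 to 1.31.

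Several members sit beside a relative or an overlapping transcript in GRCm38. Igfbp3 (chromosome 11, 7206086 to 7215498) lies 3539 bases from Igfbp1, a binding protein made by hepatocytes. Igfbp1 had 2, 0 and 0 counts in HAS2_Tg and 0, 1 and 1 in Has2_KO, so the neighbour of the member with the largest difference was barely detected. Igfbp2 (chromosome 1, 72824480 to 72852474) and Igfbp5 (72858065 to 72874865) lie 5590 bases apart on opposite strands, with Igfbp2 near 0 and Igfbp5 at low levels. Igf2 (chromosome 7, 142650768 to 142666816) is an imprinted gene 72621 bases from the imprinted noncoding gene H19, which had 1 count in 1 HAS2_Tg library and 1 count in each of 2 Has2_KO libraries. Igf2os, which overlaps Igf2 over 7137 bases, had 1, 0 and 5 counts in HAS2_Tg and 10, 11 and 5 in Has2_KO. The ratio of group sums, Has2_KO over HAS2_Tg, was 3.74 with a 95% exact interval of 1.51 to 11.1. That interval covers counting error only and leaves out the spread between libraries. A library of each group had 5 counts, so the groups overlapped, and Igf2os did not pass the low-count filter. Airn, the noncoding RNA that silences one parental copy of Igf2r in many tissues, overlaps it over 28396 bases of chromosome 17. Airn stood at 2.31 ± 0.344 against 3.14 ± 0.186 CPM (SD, n = 3), a log2 fold change of -0.44 (SE 0.21) that did not pass (edgeR adjusted p = 0.112). It was -0.36 without HAS2_Tg replicate 4. It passed with total counts (-0.61, edgeR adjusted p = 0.0269) and in all 3 limma fits on FPKM (-0.46, -0.62 and -0.46, limma adjusted p = 0.0106, 0.0131 and 0.0222). The sources used here do not say whether the counting used strand, so reads of these overlapping genes may not be fully separate.

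The 5 genes whose profile was most like that of Igfbp3 were Gm8615, Myh11, Angpt1, Stbd1 and Ptger3, by Euclidean distance of gene-centred log2 CPM over the 6 libraries. Their distances were 0.333, 0.426, 0.513, 0.595 and 0.831. Myh11, smooth muscle myosin heavy chain, had a log2 fold change of 3.55 (SE 0.10), and is on the vascular smooth muscle marker list. Angpt1, which encodes the secreted vessel factor angiopoietin 1, had 3.96 (SE 0.14). Gm8615 is a predicted gene with a log2 fold change of 6.86 (SE 0.45) and 0.0493 CPM in Has2_KO, below the limit that 3 counts set. A prior of 0.5 CPM was added before logs were taken, which shrinks the difference of a gene near 0 such as Gm8615. The distance largely follows the difference between the groups, on which Igfbp3 was chosen, so nothing further is read from this list.

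Genes that act with the IGF family were split between the directions. Of 96 genes on 8 lists, 85 were tested, 24 rose and 18 fell in HAS2_Tg, and 43 did not pass (edgeR, adjusted p of 0.05 over all genes). For these lists, rose and fell mean higher and lower in HAS2_Tg than in Has2_KO, and neither group is a baseline. That is 49.4% called, against 40.7% of all genes, with a median log2 fold change of -0.02 against -0.01 over all genes. The lists were chosen with earlier results of these data known, so nothing is read from the share of any list. Without HAS2_Tg replicate 4, 27 rose and 19 fell, and with total counts 14 rose and 36 fell, so the split between directions depends on scaling. The up to 3 genes named from each list by adjusted p kept their direction and call without replicate 4.

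**Figure D5:**
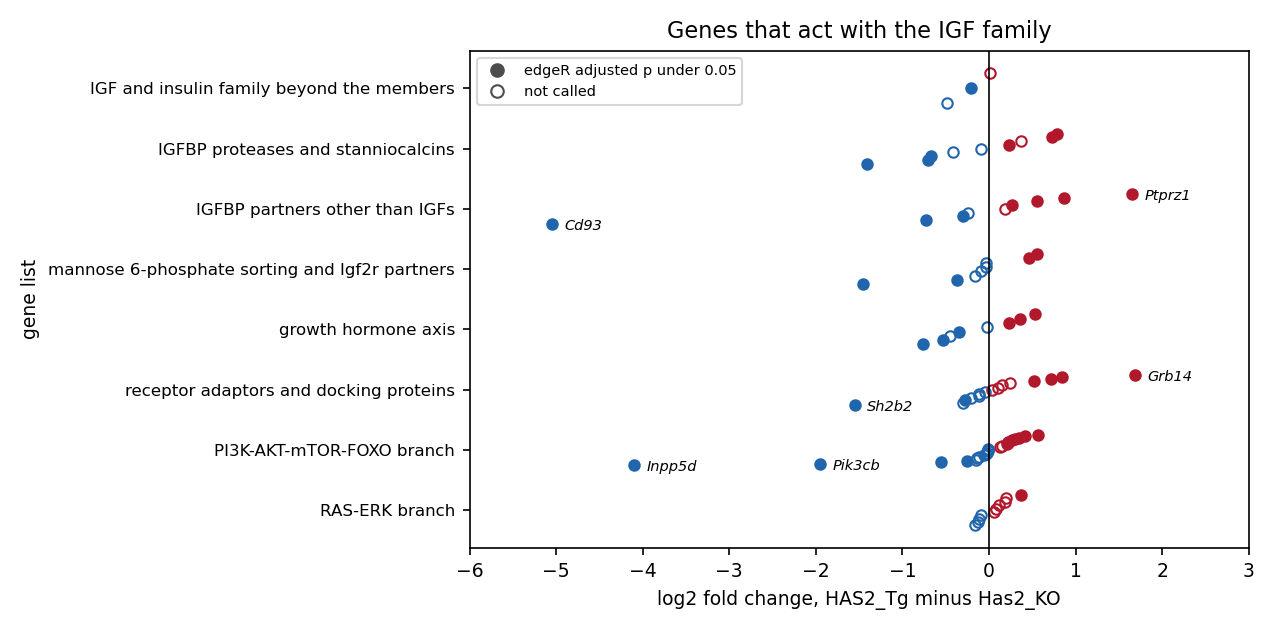
Log2 fold change (HAS2_Tg minus Has2_KO) of the 85 tested genes on the 8 lists, filled where the edgeR adjusted p was under 0.05. Most genes lie between -1 and 1, and Cd93 (-5.05), Inpp5d (-4.10) and Pik3cb (-1.95) lie farthest to the left.

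Near the ligand and its receptors, few other family members were measurable. Of 10 further IGF and insulin family genes 3 were tested and 1 was called (33.3%, against 40.7% of all genes). That gene, the RNA-binding protein gene Igf2bp2, fell slightly (-0.21, SE 0.08, edgeR adjusted p = 0.046). Its call ended in 5 of the 6 fits that each left a library out. The insulin receptor gene Insr stood at 54.0 ± 4.14 against 53.6 ± 5.91 CPM (0.01, SE 0.10). In the growth hormone axis, which controls Igf1 in the liver, 3 of 8 genes rose and 3 fell (75.0% called, against 40.7% of all genes). Socs2, a feedback inhibitor of that axis, rose (0.53, SE 0.07), while the kinase gene Jak2 (-0.76, SE 0.08) and Socs3 (-0.53, SE 0.09) fell.

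Of the 9 tested genes for IGFBP proteases and stanniocalcins, 3 rose and 3 fell (66.7% called, against 40.7% of all genes). One that fell was Stc1, at 0.528 ± 0.174 against 1.42 ± 0.0872 CPM (-1.41, SE 0.35), a stanniocalcin, which inhibits PAPP-A rather than cleaving binding proteins. The serine protease gene Htra3 rose (0.73, SE 0.12), and the metalloprotease gene Adam12 (-0.70, SE 0.11) and the lysosomal protease gene Ctsd (-0.67, SE 0.09) fell. Pappa, whose product cleaves IGFBP4, stood at 2.76 ± 0.537 against 3.70 ± 0.309 CPM and did not pass (-0.42, SE 0.21, edgeR adjusted p = 0.119). Among 9 partners of binding proteins other than IGFs, 4 rose and 3 fell (77.8% called, against 40.7% of all genes). Cd93, an endothelial receptor for IGFBP7, fell by 5.05 on the log2 scale (SE 0.13), from 66.3 ± 2.77 CPM in Has2_KO to 1.97 ± 0.322 CPM in HAS2_Tg, in the same libraries as the endothelial markers. Their part in it was not tested. Ptprz1, a receptor phosphatase that binds IGFBP2, rose (1.65, SE 0.15), as did the integrin subunit gene Itgb1 (0.87, SE 0.08).

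Beside Igf2r, the smaller mannose 6-phosphate receptor gene M6pr was higher in HAS2_Tg, against the direction of Igf2r. It stood at 436.9 ± 23.1 against 296.0 ± 12.3 CPM (0.56, SE 0.07, edgeR adjusted p = 2.15e-05). In that sorting list 2 of 8 genes rose and 2 fell, among them Plaur (-1.46, SE 0.11), the urokinase receptor gene. The enzyme that makes the mannose 6-phosphate tag had subunit genes in both directions, Gnptg higher (0.46, SE 0.09) and Gnptab, for the catalytic subunits, lower (-0.37, SE 0.09). Downstream of the receptor, 4 of 15 adaptor genes rose and 2 fell (40.0% called, near the 40.7% of all genes). Grb14 (1.69, SE 0.12) and Grb10 (0.72, SE 0.08), adaptors that restrain insulin and IGF receptor signalling, rose, and the adaptor gene Sh2b2 fell (-1.55, SE 0.19). In the PI3K branch 7 of 23 rose and 4 fell (47.8% called, against 40.7% of all genes). The kinase subunit gene Pik3cb was at -1.95 (SE 0.17), the blood cell phosphatase gene Inpp5d at -4.10 (SE 0.19) and Tsc2, an inhibitor of mTOR, at 0.57 (SE 0.09). Macrophage and endothelial markers were lower in the same libraries as Inpp5d, Pik3cb, Sh2b2 and Plaur. The part of these markers in the 4 differences was not tested. In the RAS and ERK branch 1 of 10 genes was called (10.0%, against 40.7% of all genes). That gene, Hras (0.37, SE 0.08), did not pass when total counts were used (0.19, edgeR adjusted p = 0.0704) or in any of the 3 limma fits on FPKM (limma adjusted p = 0.0595, 0.06 and 0.0786).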

How the data were processed

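RNA of 6 libraries was sequenced, 3 per genotype, grouped by their titles. Per the submitters' processing notes RSEM and mm10 were used. Its version was not given in the sources used. The files hold expected counts, the authors' estimated reads per gene, and FPKM values, which the authors scaled by length and depth, per the file headers. A length in bases, another deposited value, was used for Igf1. Genes missing from a library were set to 0 (12658 cells). Identifiers were named through RefSeq tables of GRCm38 (17857 of 17909).

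Rounded expected counts that passed filterByExpr were given TMM factors and fitted with edgeR's quasi-likelihood test (robust, two-sided, Benjamini-Hochberg at 0.05), with no covariates. The SE is the log2 fold change divided by the root of F. The script was tested on simulated data. Alternatives were other size factors, filters, DESeq2, limma on log2(FPKM + 1) and log2(FPKM + 0.1), each library left out, and, added after seeing the data, a fit without marker-list genes. The members and lists were chosen with earlier results of these data known. Named genes were the members, their neighbours, up to 3 genes per list by adjusted p with at least 5 CPM in 1 group, and the 5 nearest to Igfbp3. Insr, Pappa, Stc1 and Gnptab were named after their values were seen. Of the neighbours in that rule, Slc22a3 had 1 count in all, and Tnp1 and Slc22a2 gave no value. Fits ran in edgeR 4.0.16, DESeq2 1.42.0 and limma 3.58.1 under R 4.3.3. Exact intervals used scipy 1.17.1, tables used numpy 2.4.6 with pandas 2.3.3, and plots used matplotlib 3.10.9, all under Python 3.11.15.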

Additional observations from a re-analysis of the deposited data

How the results depend on the processing

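The 8 members past the filter kept their direction in all 125 alternative values computed, and 19 of these moved by at least the SD of log2 CPM within groups. Over all of them Igfbp5 lay between 0.37 and 1.23, Igf2 between -1.02 and -0.42 and Igf1 between -2.55 and -1.77. The alternatives reuse the same libraries, so a kept direction is not further evidence. Leaving out each library in turn moved Igfbp3 between 3.76 and 3.93 and Igfbp5 between 0.72 and 1.23 on the log2 scale. Total counts in place of TMM moved the median of all genes from -0.01 to -0.18, and Igfbp3 to 3.69, Igf1r to 0.45 and Igfbp7 to 0.41. With it 1477 genes were higher and 4823 lower in HAS2_Tg, against 2625 and 2673, and 14 and 36 list genes, against 24 and 18. The limma fits, whose FPKM values carry no TMM factor, gave 1399 and 4198 genes (14 and 31 list genes) on log2(FPKM + 1), 1376 and 4138 (14 and 31) on log2(FPKM + 0.1), and 1366 and 4596 (14 and 30) with no filter. As shares of binding protein counts, with no correction for length, Igfbp3 held 34.1% and Igfbp7 65.3% in HAS2_Tg, and 4.99% and 93.3% in Has2_KO. Igf2bp2 also lost its call with no low-count filter and in DESeq2's Wald test (adjusted p = 0.0774 and 0.136). Igf2, Igfbp2 and Igfbp6 rest on few counts, which limits their precision. No paired analysis was possible because the groups share no replicate numbers.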
